A study of Mus musculus with 4 samples.

Results

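The genes described here are 50 members of the Toll-like receptor (TLR) and NF-κB pathway: 8 receptors with their chaperone, the adaptors, kinases and ubiquitin ligases that carry the signal, the NF-κB subunits with their inhibitors, the neighbouring TNF branch, 2 IRF transcription factors and Icam1. They were chosen by name, and all 50 had a row among the 18751 distinct gene names measured. RNA of 2 libraries from mice lacking the myeloid surface receptor CD300ld (CD300ld KO) was compared with 2 libraries from wild-type (WT) mice. All mice were of the C57BL/6 strain, 8 weeks old by the labels, and carried subcutaneous tumours of B16-F10, a transplantable mouse melanoma line. Neutrophil-like cells that are known to restrain T cells in hosts with tumours, called polymorphonuclear myeloid-derived suppressor cells (PMN-MDSCs), were collected on day 15 by magnetic enrichment of neutrophils. The labels do not name the organ, do not describe the deleted part of the gene and leave unsaid whether each library is a different animal. P-values here therefore reflect spread among the 4 libraries alone, and that spread may be technical.

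TLRs sense microbial lipids, proteins and nucleic acids, and most of them signal through the adaptor MyD88, IRAK kinases and the ligase TRAF6 to the kinase TAK1 and the IKK complex. IKK marks the inhibitor IκBα for destruction, which frees NF-κB dimers to enter the nucleus and raise the transcription of cytokine genes and of the pathway's own inhibitors. In neutrophils and their precursors this pathway is known to control cytokine release, adhesion and survival.

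Total counts reached 830931 and 835510 per KO library, against 674599 and 920839 per WT library. Levels are given as CPM, counts scaled to a common library total after adjustment by the trimmed mean of M values (TMM). Cd300ld itself had 2 and 3 counts in KO against 0 and 11 in WT, too few to check the genotype labels. The neutrophil marker Ly6g had 8 and 8 counts in KO, against 49 and 90 in WT, and the summed level of 15 neutrophil markers was 3416 to 3720 CPM in KO and 19556 to 20247 CPM in WT, with 8 of 14 tested markers lower and 0 higher. Erythroid markers summed to 198204 to 217809 CPM in KO and 158188 to 166232 CPM in WT (10 of 15 tested higher, 0 lower), and B cell markers to 6485 to 7102 and 4859 to 5636 CPM (1 of 11 higher, 0 lower), so both genotypes hold RNA of other cell types. In such bulk RNA, fewer cells of a type and less RNA per cell cannot be told apart.

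Of the 50 members, 42 passed the filter on low counts (about 10 counts in a library of middling size, in at least 2 libraries) and entered the comparison of KO with WT, which asks how the transcripts of the preparation differ without CD300ld. Tlr4, Tlr6, Tlr7, Tlr8, Ticam2, Traf3, Bcl3 and Ripk2 fell under it. Of the 42, 1 passed an adjusted p of 0.05 in edgeR's quasi-likelihood test with Benjamini-Hochberg adjustment over all genes, the TNF receptor gene Tnfrsf1a, 2.08-fold lower in KO, and 0 were higher. Over all 7685 genes tested, 5.97% were called, 2.71% higher and 3.27% lower. The share of tested members called, 2.38%, was below that background but rests on 1 gene, too few to rank the members against all genes. At an unadjusted p under 0.05 there were 5 of 42 members, or 11.9%, against 18.9% of all genes. The libraries of the genotypes did not overlap for 15 of 42 members (35.7%, with 5 above and 10 below WT), against 48.2% of all tested genes (24.5% above and 23.6% below). Above WT were Tlr9, Tollip, Tab1, Chuk and Birc3, and below it Unc93b1, Ticam1, Irak3, Irak4, Ikbkg, Map3k8, Nfkbie, Tnip1, Cyld and Tnfrsf1a.

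Over the list, the 42 tested members had a median log2 fold change of −0.18, with 15 positive and 27 negative values, while the median over all tested genes was 0.0025. Without WT library 2 the members' median turned to 0.06, so its sign rests on that library. By role, medians ran from −0.78 for the 3 ubiquitin editors to 0.11 for the 5 genes of IRAK kinases and TOLLIP, with Icam1 alone at 0.37 and few members in each role. The median size of the log2 fold change regardless of sign was 0.34 for the members and 0.37 for all tested genes. Summed over all 50 members, the level was 1882 and 2064 CPM in the KO libraries, against 1997 and 2312 CPM in the WT libraries, and the genotypes overlap. The depth behind a tested member was modest, with summed counts over the 4 libraries of 36 to 898 and a median of 101.5, and that sets how much each value can show. The 95% interval of the fitted fold change lay within 2-fold in both directions for 13 members, namely Unc93b1, Myd88, Irak2, Ikbkb, Nfkb2, Rel, Rela, Nfkbia, Nfkbib, Nfkbiz, Tnfaip3, Irf3 and Irf5. For 25 members it reached 2-fold in 1 direction and for 4 in both, so a difference of that size in that direction was not excluded for them. Among the 25, the intervals of Tnfrsf1a, Irak3, Tnip1 and Cyld lay wholly on the lower side of no change and that of Tab1 on the higher side.

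**Figure D1:**
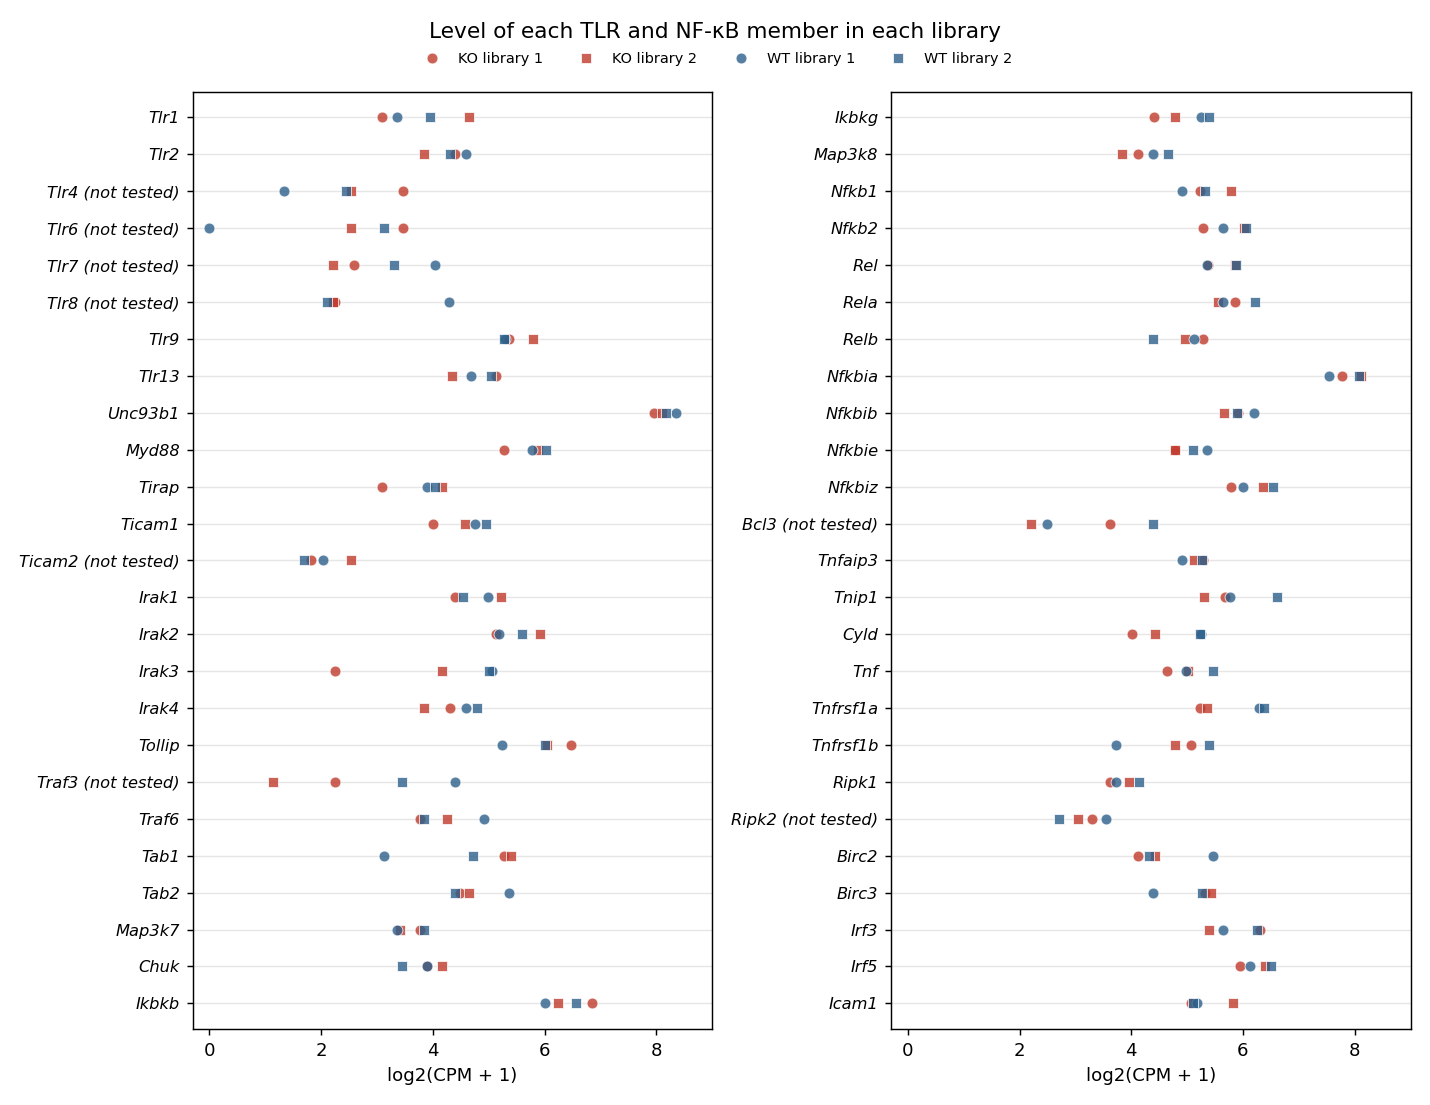
Level of each of the 50 members in each library as log2(CPM + 1), with KO libraries in red and WT libraries in blue (circles library 1, squares library 2). For most members the red and blue points interleave, and Tnfrsf1a, Cyld, Irak3 and Traf3 are among those with both red points left of both blue ones.

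**Figure D2:**
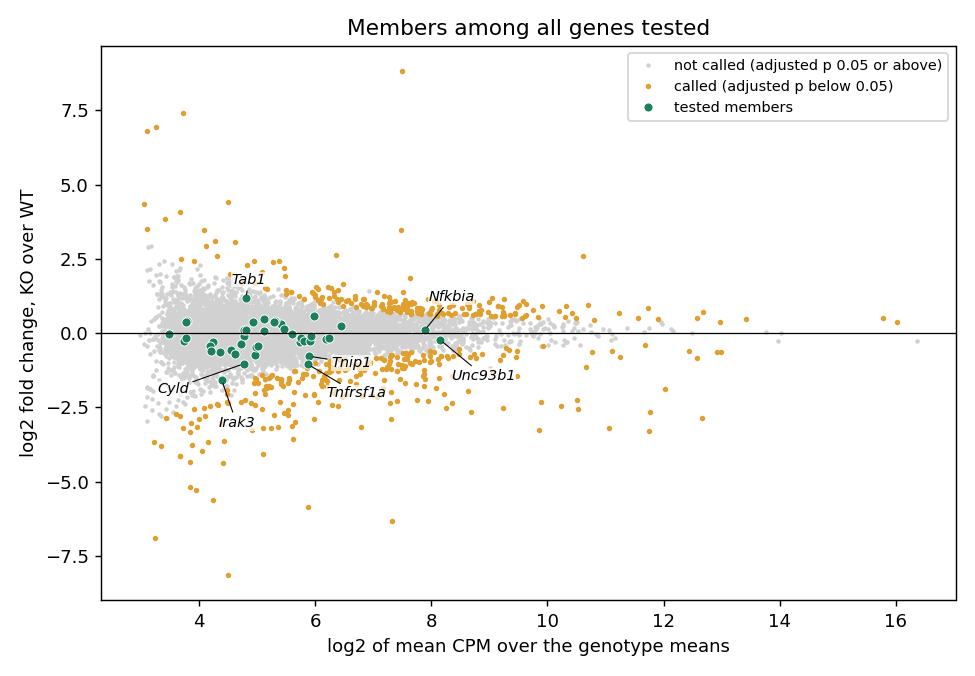
Log2 fold change of KO over WT against the mean level for all 7685 tested genes (grey, with the 459 called genes in orange) and the 42 tested members (green). The members lie inside the grey cloud, between −1.59 for Irak3 and 1.17 for Tab1.

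To set the values beside the sequence that NF-κB reads, the 250 bases before the start of each gene were searched in the RefSeq promoter table of build GRCm38.p6. Where a gene had several starts, only the one farthest upstream was searched. A κB motif was written as GGG, then any 3 bases, then TTCC. It was searched on both strands, so that a match on the other strand reads GGAA, any 3 bases, CCC. Of the 50 members 39 matched the table by symbol, and 12 of these (30.8%) held at least 1 match, against 4.63% of all 27025 genes in the table. The 12 were Tlr2, Tlr6, Traf3, Map3k7, Chuk, Nfkb2, Rel, Nfkbia, Nfkbie, Tnfaip3, Tnip1 and Cyld. Members without an entry were not searched, namely Tlr4, Tlr7, Unc93b1, Ticam2, Tab1, Ikbkb, Map3k8, Nfkb1, Relb, Nfkbiz and Ripk2. Tnf, Birc3 and Icam1, named below as genes that NF-κB induces, held no match, so this motif and window miss some targets. The members were listed as pathway genes, some of them well-known NF-κB targets, so the share of 30.8% is a description of the list. The window of Tnfrsf1a is given because it is the called member, and those of Nfkbia, Tnfaip3, Tnip1 and Cyld as 4 examples, picked with their values known, of genes that restrain the pathway and hold a match. Nfkbie, another inhibitor, and Traf3, which restrains the alternative route, also hold a match and are not shown. Each runs 5′ to 3′ on the strand of its gene and ends at the base before the start, with matches in capitals. The build of the counted reads is not settled, so the windows are tied to the counts by gene symbol alone.
Tnfrsf1a, chr6:125349473-125349722, plus strand: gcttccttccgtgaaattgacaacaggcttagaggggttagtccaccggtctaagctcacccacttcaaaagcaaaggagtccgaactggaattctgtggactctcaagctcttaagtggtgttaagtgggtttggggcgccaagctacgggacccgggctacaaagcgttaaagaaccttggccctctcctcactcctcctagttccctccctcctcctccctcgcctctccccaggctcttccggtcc
Nfkbia, chr12:55492648-55492897, minus strand: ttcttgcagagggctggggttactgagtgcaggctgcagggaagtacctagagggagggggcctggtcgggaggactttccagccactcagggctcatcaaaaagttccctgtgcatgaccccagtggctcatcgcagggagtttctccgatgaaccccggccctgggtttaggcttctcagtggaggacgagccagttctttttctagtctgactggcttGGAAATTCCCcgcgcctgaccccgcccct
Tnfaip3, chr10:19015411-19015660, minus strand: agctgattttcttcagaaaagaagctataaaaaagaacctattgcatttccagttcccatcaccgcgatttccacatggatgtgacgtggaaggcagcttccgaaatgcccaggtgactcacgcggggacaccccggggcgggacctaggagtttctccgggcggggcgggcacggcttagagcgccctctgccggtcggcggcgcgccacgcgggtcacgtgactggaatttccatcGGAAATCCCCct
Tnip1, chr11:54962941-54963190, minus strand: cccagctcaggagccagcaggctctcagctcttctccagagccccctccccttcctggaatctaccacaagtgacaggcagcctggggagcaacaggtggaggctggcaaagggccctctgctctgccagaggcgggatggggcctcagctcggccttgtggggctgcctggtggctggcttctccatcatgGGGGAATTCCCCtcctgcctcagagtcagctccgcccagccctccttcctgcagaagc
Cyld, chr8:88696778-88697027, plus strand: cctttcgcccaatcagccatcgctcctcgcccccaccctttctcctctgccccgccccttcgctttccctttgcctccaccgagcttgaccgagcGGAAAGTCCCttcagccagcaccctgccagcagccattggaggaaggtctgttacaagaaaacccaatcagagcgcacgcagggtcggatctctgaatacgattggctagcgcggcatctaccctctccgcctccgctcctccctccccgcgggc
The Tnfrsf1a window holds none of these letters, which says nothing about the factor. The match in Nfkbia begins 29 bases before the start, that in Tnfaip3 12 bases and that in Cyld 155 bases, while the pair in Tnip1 overlaps and begins 58 and 56 bases before it. Among these 4 genes the fitted values ran from −1.03 for Cyld to 0.10 for Nfkbia on the log2 scale, and none was called with all libraries. The positive values, of Nfkbia (0.10 ± 0.20) and Tnfaip3 (0.08 ± 0.38), were smaller than their errors. That of Nfkbia turned negative without KO library 2 or without WT library 1, and that of Tnfaip3 reached −0.086 with a library left out. Nfkbie had a value of −0.45 ± 0.40, and Traf3 was under the filter.

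Of the receptors at the cell surface, TLR2 pairs with TLR1 or TLR6 to sense bacterial lipoproteins and TLR4 senses lipopolysaccharide. Tlr2 had 20.2 and 13.3 CPM in KO and 23.0 and 18.8 CPM in WT, a log2 fold change of −0.32 ± 0.52 (SE). Tlr1 had 7.56 and 24.1 CPM in KO and 9.22 and 14.4 CPM in WT (0.40 ± 0.66). The KO libraries of Tlr1 thus lie outside the WT pair on both sides, and neither gene passed the test. Tlr4 had 8 and 4 counts in KO, against 1 and 4 in WT, and Tlr6 had 8 and 4 in KO and 0 and 7 in WT, so both fell under the filter. Their summed ratios of KO to WT were 2.30 (exact 95% interval 0.754 to 8.33) for Tlr4 and 1.64 (0.596 to 4.92) for Tlr6. These intervals cover counting error only and include a ratio of 1. Tlr1 and Tlr6 are alike in sequence, and how reads shared between them were counted is not given in the sources used here.

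Among the receptors of the endosome, TLR9 senses unmethylated DNA, TLR7 single-stranded RNA and TLR13 bacterial ribosomal RNA. UNC93B1 carries the receptors of this group to the endosome from the endoplasmic reticulum. Tlr9 had 40.3 and 54.3 CPM in KO and 38.4 and 37.7 CPM in WT. Both KO values were above both WT values, yet the difference of 0.32 ± 0.35 on the log2 scale did not pass (adjusted p = 0.701). Unc93b1 was the member with the most counts, at 248 and 275 CPM in KO and 326 and 289 CPM in WT. Its log2 fold change was −0.23 ± 0.17, and the 95% interval of −0.58 to 0.12 lay within 2-fold in both directions. Tlr13 had 34.0 and 19.3 CPM in KO and 24.6 and 32.1 CPM in WT, with the WT pair inside the KO pair (−0.10 ± 0.45). Tlr7 had 4 and 3 counts in KO against 10 and 8 in WT, a summed ratio of 0.372 (exact 95% interval 0.131 to 0.934). Tlr8 had 3 and 3 counts in KO against 12 and 3 in WT, a ratio of 0.383 (0.122 to 1.04), and 1 WT library holds most of its counts. Both fell under the filter. With no filter, Tlr7 had a log2 fold change of −1.43 ± 0.92 with adjusted p = 0.772 and Tlr8 one of −1.46 ± 1.01 with adjusted p = 0.814 in edgeR.

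The TIR-domain adaptors link the receptors to the kinases. MyD88 serves nearly all TLRs, TIRAP bridges it to TLR2 and TLR4, and TICAM1 (TRIF) and TICAM2 (TRAM) lead to interferon. Myd88 had 37.8 and 57.9 CPM in KO and 53.8 and 64.3 CPM in WT (−0.31 ± 0.32), and the genotypes overlap. Ticam1 had 15.1 and 22.9 CPM in KO and 26.1 and 29.9 CPM in WT, without overlap (−0.56 ± 0.47, adjusted p = 0.592 in edgeR). For Tirap the values were 7.56 and 16.9 CPM in KO and 13.8 and 15.5 CPM in WT (−0.26 ± 0.63), with the KO libraries 2.24-fold apart. Ticam2 had 2 and 4 counts in KO, against 2 and 2 in WT, too few to test. All 3 tested adaptors had negative values with all libraries and 0 passed, and Tirap turned to 0.18 without KO library 1.

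Downstream of MyD88, IRAK4 activates IRAK1 and IRAK2, while IRAK3 (IRAK-M) and TOLLIP are known as brakes. Irak3 had the largest log2 fold change of the tested members by size, at 3.78 and 16.9 CPM in KO and 32.3 and 31.0 CPM in WT. In counts that is 3 and 14 in KO against 21 and 28 in WT, so both KO libraries lie below WT but differ 4.47-fold from each other. The log2 fold change of −1.59 ± 0.59 had an unadjusted p of 0.0160 and did not pass after adjustment (adjusted p = 0.140 in edgeR). It passed without KO library 2 (−3.01, adjusted p = 0.0129) and stood at −0.91 without KO library 1 (adjusted p = 0.513), so its size rests on which KO library is read. Irak4 had 18.9 and 13.3 CPM in KO and 23.0 and 26.6 CPM in WT (−0.63 ± 0.50). Tollip lay the other way, at 88.2 and 65.2 CPM in KO and 36.9 and 63.1 CPM in WT (0.58 ± 0.32, adjusted p = 0.345), with the lower KO library close to the higher WT library. Irak1 had 20.2 and 36.2 CPM in KO and 30.7 and 22.2 CPM in WT (0.11 ± 0.46), and Irak2 had 34.0 and 59.2 CPM in KO and 35.3 and 47.6 CPM in WT (0.15 ± 0.37). Both WT pairs lie inside the KO pairs.

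TRAF6 builds ubiquitin chains on which TAB2 holds the kinase TAK1 (Map3k7), TAB1 activates that kinase, and TRAF3 directs the interferon branch and restrains the alternative NF-κB route. Tab1 had the largest positive value among the tested members, with 37.8 and 41.0 CPM in KO and 7.68 and 25.5 CPM in WT. The KO libraries agree closely while the WT libraries are 3.32-fold apart, and the log2 fold change of 1.17 ± 0.50 did not pass (adjusted p = 0.205 in edgeR). It stood at 2.34 with WT library 2 removed (adjusted p = 0.0252) and at 0.61 with WT library 1 removed (adjusted p = 0.642). Traf3 had 3 and 1 counts in KO, against 13 and 9 in WT, a summed ratio of 0.174 (exact 95% interval 0.0436 to 0.513, counting error only). It fell under the filter, and with no filter its log2 fold change was −2.50 ± 0.97 with adjusted p = 0.190 in edgeR. Traf6 had 12.6 and 18.1 CPM in KO and 29.2 and 13.3 CPM in WT (−0.42 ± 0.57), and Tab2 had 21.4 and 24.1 CPM in KO and 39.9 and 19.9 CPM in WT (−0.36 ± 0.48). In both genes WT library 1 stands above the other libraries. Map3k7 had 12.6 and 9.66 CPM in KO and 9.22 and 13.3 CPM in WT, with the KO pair inside the WT pair (−0.04 ± 0.66).

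**Figure D3:**
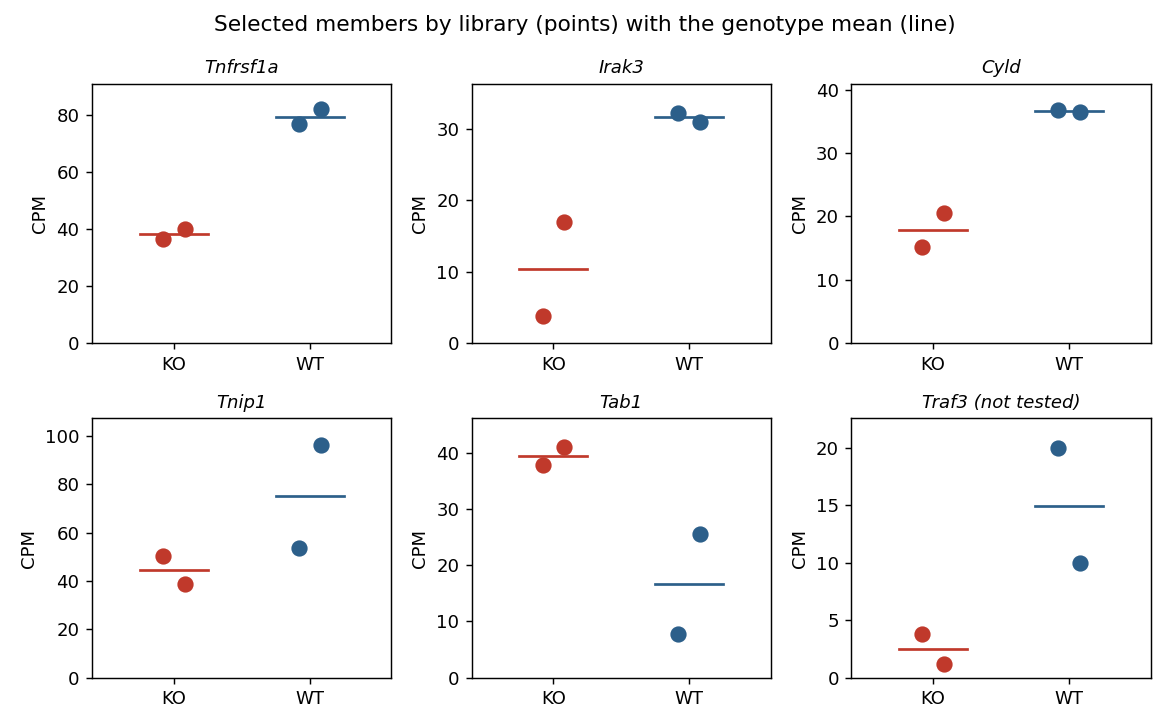
CPM of 6 members in each library (points, KO in red on the left and WT in blue on the right) with the genotype mean as a line and the axis starting at 0. The points of a genotype lie close together for Tnfrsf1a, whereas the KO points of Irak3 and the WT points of Tab1 and Tnip1 lie far apart.

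The IKK complex consists of the kinases IKKα (Chuk) and IKKβ (Ikbkb) and the scaffold NEMO (Ikbkg), and TPL2 (Map3k8) leads from it to the ERK pathway. Ikbkg had 20.2 and 26.6 CPM in KO and 36.9 and 41.0 CPM in WT, without overlap (−0.74 ± 0.41, adjusted p = 0.366 in edgeR). Ikbkb had 115 and 74.8 CPM in KO and 63.0 and 94.2 CPM in WT, which overlap (0.25 ± 0.28). Map3k8 stood at 16.4 and 13.3 CPM in KO and 20.0 and 24.4 CPM in WT, without overlap (−0.59 ± 0.52). In KO, Chuk had 11 and 14 counts, against 9 and 9 in WT (0.39 ± 0.61). With all libraries the complex had positive values for both kinases and a negative one for the scaffold, 0 of them passed, and Ikbkb turned negative without KO library 1 or without WT library 1.

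The 5 NF-κB subunits form the dimers that bind DNA. Rela, which encodes the main activating subunit, had 56.7 and 45.9 CPM in KO and 49.2 and 73.1 CPM in WT (−0.27 ± 0.31). Nfkb1, its usual partner, had 36.5 and 54.3 CPM in KO and 29.2 and 38.8 CPM in WT (0.40 ± 0.37). Rel had 40.3 and 56.7 CPM in KO and 39.9 and 57.6 CPM in WT, nearly the same pair of values in each genotype (−0.02 ± 0.34). The subunits of the alternative route are encoded by Nfkb2 and Relb. Nfkb2 had 37.8 and 64.0 CPM in KO and 49.2 and 65.4 CPM in WT (−0.18 ± 0.33), and Relb had 37.8 and 30.2 CPM in KO and 33.8 and 19.9 CPM in WT (0.36 ± 0.43). All 5 pairs overlap between the genotypes, and the smallest adjusted p among them was 0.624, for Nfkb1, in edgeR. The 95% intervals kept Rela between −0.94 and 0.39 and Rel between −0.74 and 0.69, within 2-fold either way.

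IκB proteins hold NF-κB in the cytoplasm or, for IκBζ (Nfkbiz) and BCL3, act with it in the nucleus. Nfkbia, which encodes IκBα and is itself induced by NF-κB, had 173 and 228 counts in KO, against 121 and 243 in WT, or 218 and 275 CPM against 186 and 269 CPM. The genotypes overlap, and the log2 fold change of 0.10 ± 0.20 had a 95% interval of −0.32 to 0.53. Nfkbiz had 54.2 and 80.9 CPM in KO and 63.0 and 92.0 CPM in WT (−0.21 ± 0.29). Nfkbie, encoding IκBε, had 26.4 and 26.6 CPM in KO and 39.9 and 33.2 CPM in WT, without overlap (−0.45 ± 0.40, adjusted p = 0.612). Nfkbib, encoding IκBβ, had 59.2 and 49.5 CPM in KO and 72.2 and 58.7 CPM in WT, with the higher KO library just above the lower WT library (−0.26 ± 0.29). Bcl3 had 9 and 3 counts in KO, against 3 and 18 in WT, a summed ratio of 0.547 (exact 95% interval 0.245 to 1.16), with both pairs over 3-fold apart.

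Among the enzymes and partners that edit ubiquitin chains, A20 (Tnfaip3) ends the signal with ABIN1 (Tnip1), and CYLD cuts the chains on which the kinases gather. Tnfaip3 had 37.8 and 33.8 CPM in KO and 29.2 and 37.7 CPM in WT, which overlap (0.08 ± 0.38). Tnip1 had 50.4 and 38.6 CPM in KO and 53.8 and 96.4 CPM in WT. Its log2 fold change of −0.78 ± 0.33 (adjusted p = 0.208) passed only when WT library 1 was left out, among the alternatives run (−1.13, adjusted p = 0.0312), and was −0.27 without WT library 2 (adjusted p = 0.833). Cyld had 12 and 17 counts in KO, against 24 and 33 in WT, or 15.1 and 20.5 CPM against 36.9 and 36.6 CPM. Both KO libraries lie well below a tight WT pair, and the value of −1.03 ± 0.44 had an unadjusted p of 0.0328 and an adjusted p of 0.211 in edgeR. Over the alternatives Cyld ran from −1.27 to −0.84, with adjusted p from 0.201 to 0.628, so it was never called. The WT pair of Tnip1 is 1.79-fold apart, and that gene's value follows the WT library that is read.

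In the TNF branch, TNF is a cytokine that NF-κB induces and that acts through the receptors TNFR1 (Tnfrsf1a) and TNFR2 (Tnfrsf1b). Tnfrsf1a had 29 and 33 counts in KO, against 50 and 74 in WT, or 36.5 and 39.8 CPM against 76.8 and 82.0 CPM. Both pairs are tight and do not overlap, and the mean was 38.2 ± 2.34 CPM in KO and 79.4 ± 3.66 CPM in WT (SD, n = 2 libraries each). The log2 fold change of −1.06 ± 0.29 (95% interval −1.68 to −0.43) passed with adjusted p = 0.0442 in edgeR. Over the alternatives its fitted value stayed between −1.12 and −1.005, but its adjusted p ran from 0.0409 to 0.231, and the call ended whichever library was left out (adjusted p of 0.127 without KO library 1, 0.0811 without KO library 2, 0.0608 without WT library 1 and 0.151 without WT library 2). It also ended in DESeq2, with a filter of 1 CPM and without scaling. TNFR1 is borne by many cell types, and in the same libraries 15 neutrophil, 11 monocyte and 12 measured macrophage markers summed to 3416 to 3720, 642 to 710 and 477 to 595 CPM in KO, against 19556 to 20247, 1117 to 1345 and 1009 to 1057 CPM in WT. Of these, 8 of 14, 3 of 10 and 4 of 11 tested markers were called lower, 0 were called higher, and none was at 0 in all 4 libraries. The sums follow the most abundant genes, such as S100a8 with 1566 and 1569 CPM in KO and 11262 and 11368 CPM in WT. Single log2 fold changes ran from −3.14 to 0.25 for neutrophil, −2.04 to 0.47 for monocyte and −2.06 to −0.20 for macrophage markers. The part of these cell types in the value of Tnfrsf1a was not tested.

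Tnfrsf1b, the other receptor gene, had 32.7 and 26.6 CPM in KO and 12.3 and 41.0 CPM in WT (0.10 ± 0.50), with the KO pair inside a WT pair 3.34-fold apart. Tnf had 23.9 and 31.4 CPM in KO and 30.7 and 43.2 CPM in WT, which overlap (−0.43 ± 0.41, adjusted p = 0.638 in edgeR). Of the receptor-bound proteins, Ripk1 encodes the scaffold kinase of TNFR1, and Birc2 and Birc3 encode the ligases cIAP1 and cIAP2. Birc2 had 16.4 and 20.5 CPM in KO and 43.0 and 18.8 CPM in WT (−0.70 ± 0.51), and WT library 2 lies between the KO libraries. Birc3, which NF-κB induces, had 39.0 and 42.3 CPM in KO and 20.0 and 37.7 CPM in WT, without overlap (0.46 ± 0.40). Ripk1 had 11.3 and 14.5 CPM in KO and 12.3 and 16.6 CPM in WT, which overlap (−0.18 ± 0.60). Ripk2, the kinase that serves the NOD receptors, had 7 and 6 counts in KO, against 7 and 5 in WT, a summed ratio of 1.04 (exact 95% interval 0.436 to 2.49).

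The IRF factors act beside NF-κB in the same signal. Irf5, which MyD88 activates, had 60.5 and 83.3 CPM in KO and 69.1 and 89.7 CPM in WT (−0.15 ± 0.27), and Irf3, which TICAM1 activates, had 78.1 and 41.0 CPM in KO and 49.2 and 75.3 CPM in WT (−0.09 ± 0.34). Icam1, an adhesion molecule gene and NF-κB target, had 32.7 and 55.5 CPM in KO and 35.3 and 33.2 CPM in WT (0.37 ± 0.38). The genotypes overlap for all 3.

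**Figure D4:**
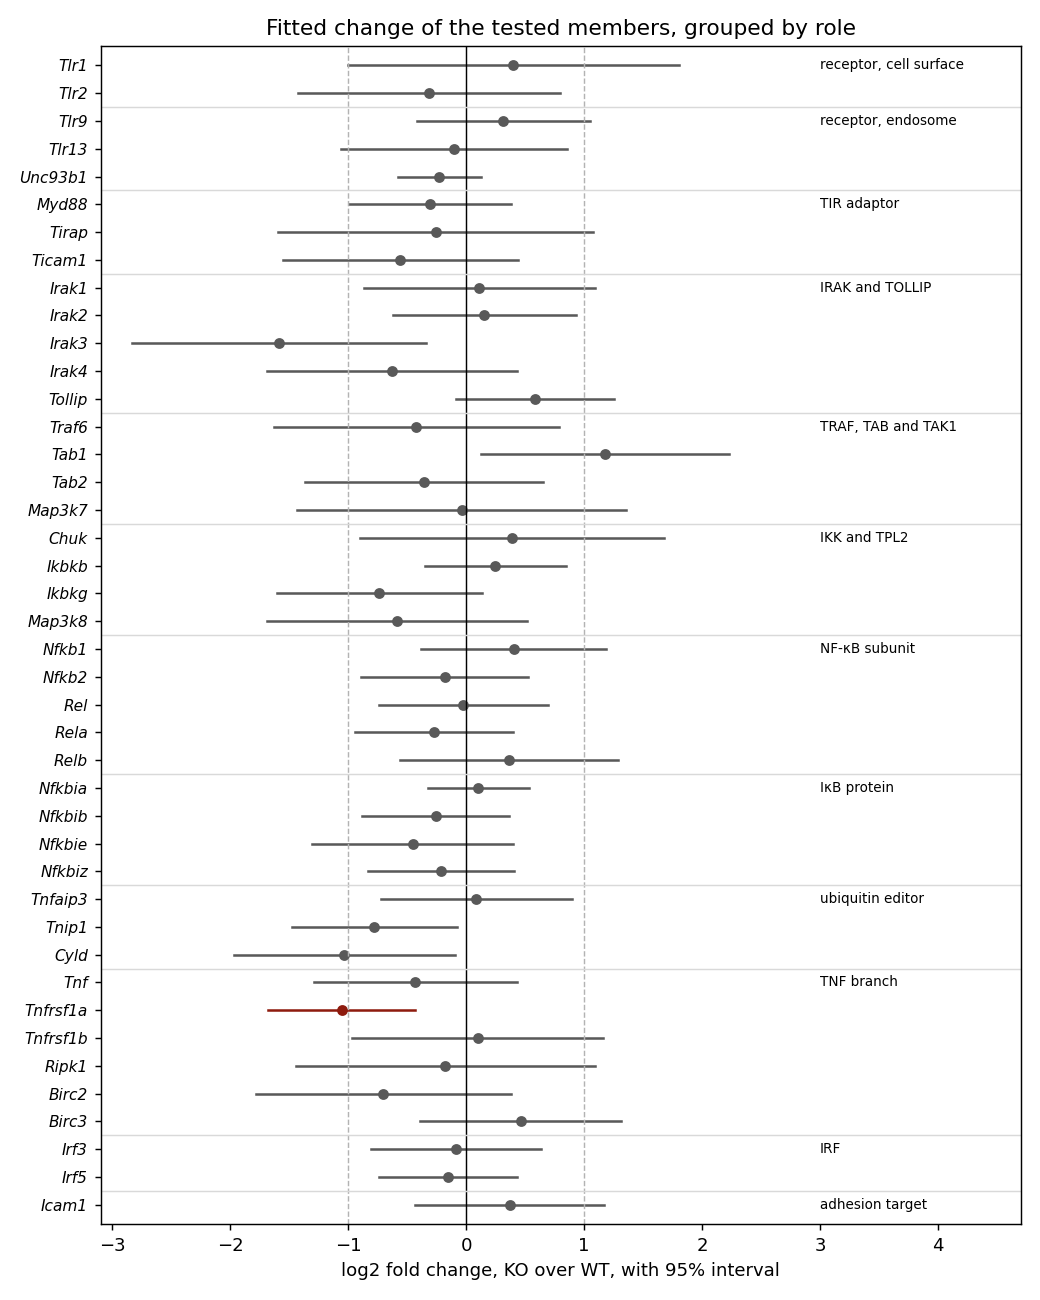
Log2 fold change of KO over WT with its 95% interval for the 42 tested members, grouped by role, with dashed lines at 2-fold. The interval of Tnfrsf1a (dark red) lies wholly below 0, and those of Irak3, Tnip1 and Cyld (below) and Tab1 (above) also miss 0 without passing after adjustment.

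Libraries of 1 genotype differed among themselves on the scale of the differences above. The WT libraries of Traf6, Tab1, Tab2, Tnfrsf1b and Birc2 and the KO libraries of Tlr1, Tirap and Irak3 were at least 2-fold apart. Library 1 lay below library 2 for 28 of the 42 tested members in KO and for 28 in WT, against 49.0% and 49.8% of all tested genes. A library's number names it and nothing more. Leaving out 1 library turned the sign of 20 of the 42 members, while 22 kept theirs under every alternative run, among them Tnfrsf1a, Cyld, Tnip1, Irak3 and Tab1.

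**Figure D5:**
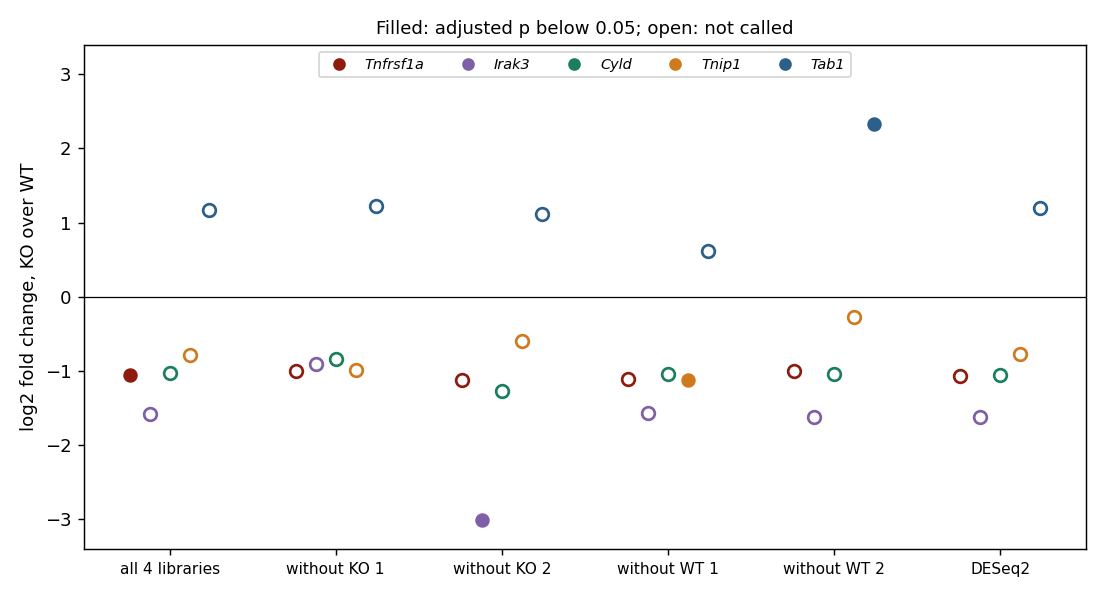
Log2 fold change of KO over WT for the 5 members with an unadjusted p under 0.05, in the fit of all 4 libraries, with each library left out, and in DESeq2 (filled points have an adjusted p below 0.05). Tnfrsf1a stays between −1.12 and −1.005, and the filled gene differs with the library left out.

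Beyond the members, 75 other genes of the pathway were listed by function, of which 54 were tested. There were 0 higher and 2 lower (3.70%, against 5.97% of all tested genes), with a median log2 fold change of −0.05. Irf7, the interferon regulatory factor that amplifies type I interferon, had 75 and 63 counts in KO, against 127 and 183 in WT, and fell by 1.22 ± 0.21 on the log2 scale (adjusted p = 0.00173 in edgeR). It was called under every alternative run, with values from −1.40 to −1.07. Lbp, the lipopolysaccharide-binding protein gene, had 2 and 9 counts in KO, against 18 and 87 in WT, and fell by 3.21 ± 0.64 (adjusted p = 0.00517). WT library 2 holds most of its counts, and without that library it was −2.01 (adjusted p = 0.184). Its call also ended in DESeq2 (0.150) and limma-voom (0.131).

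Of 14 tested co-receptors and related sensors, Lbp was the 1 call and the median was −0.30. Sigirr, an inhibitory receptor of the TLR and interleukin-1 family, had 31 and 31 counts in KO, against 7 and 12 in WT, a value of 1.64 ± 0.47 that did not pass (adjusted p = 0.0506) but did with haemoglobin and mitochondrial genes left out (0.0479). Cd14, the co-receptor that hands lipopolysaccharide to TLR4, had 58 and 66 counts in KO, against 31 and 44 in WT (0.66 ± 0.28, adjusted p = 0.211). Card9, an adaptor of C-type lectin signals, had a value of −1.63 ± 0.67 (adjusted p = 0.190), which passed without KO library 2 (−3.12, adjusted p = 0.0488). Of 25 tested kinases, ligases and scaffolds 0 passed, with a median of −0.13 and 5 at an unadjusted p under 0.05. Among those 5 were Akt1 (−1.31 ± 0.50), Ripk3 (−1.15 ± 0.46) and Map2k4 (−0.96 ± 0.42). Of 15 tested inhibitors and cofactors Irf7 was the 1 call and the median was 0.19. Pdlim2, a ligase that targets nuclear RelA, had a value of −1.10 ± 0.40 (adjusted p = 0.127), and Crebbp, a coactivator, one of 0.68 ± 0.34 (adjusted p = 0.305). Irf4, an interferon regulatory factor that competes with IRF5 for MyD88, had a value of 1.13 ± 0.60 (adjusted p = 0.336).

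A list of 48 genes whose transcription NF-κB is widely known to raise held 28 tested genes, with a median log2 fold change of −0.23. Of the 28, 2 were higher and 3 lower (17.9%, against 5.97% of all tested genes). The list was chosen with earlier results of these data known, so this share is a description of the list. Il1b, encoding interleukin-1β, had 107 and 80 counts in KO, against 25 and 45 in WT, and was 2.58-fold higher in KO (1.37 ± 0.28, adjusted p = 0.00652 in edgeR). Ccrl2, an atypical chemokine receptor gene, had 90 and 97 counts in KO, against 21 and 42 in WT, 2.87-fold higher. Lcn2 had 348 and 343 counts in KO, against 1505 and 2454 in WT, 5.90-fold lower, and Mmp9 had 104 and 86 in KO and 249 and 415 in WT, 3.60-fold lower. Both encode granule proteins of neutrophils and stand in the neutrophil marker lists too. Vcam1, an adhesion molecule gene that is also a macrophage marker, had 60 and 86 counts in KO, against 147 and 174 in WT, 2.32-fold lower. The 5 called targets thus moved in both directions, and all 5 were called under every alternative run. The list named for secondary granules summed to 4155 to 4323 CPM in KO and 23414 to 25978 CPM in WT, with 9 of 9 lower. It includes Lcn2 itself, and also Lyz2 and Ltb4r1, which are not particular to these granules. Primary granule markers summed to 718 to 1127 CPM in KO and 3486 to 6181 CPM in WT, with 5 of 5 lower. Neither granule list includes Mmp9. The part of neutrophil content in the values of Lcn2 and Mmp9 was not tested.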

How the data were processed

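RNA from 4 PMN-MDSC libraries, 2 CD300ld KO and 2 WT, was sequenced from TruSeq libraries of TRIzol-extracted total RNA, per the labels' protocols. The table the authors deposited holds raw read counts, as whole numbers per gene and library. The submitters' processing notes name Bowtie 0.12.2 and the builds mm8 and mm9 with no role given, and the program that counted reads, its annotation and its strand setting were not given in the sources used here. Reads of overlapping or antisense genes therefore cannot be told apart. The table held 21831 rows and 18751 distinct names; rows of a repeated name were identical and were kept once. Columns give the genotype but not the sample, so no pairing was used.

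The fit used edgeR 4.0.16 under R 4.3.3 (TMM scaling, filterByExpr with a minimum count of 10 and total of 15, quasi-likelihood test of KO over WT), with Benjamini-Hochberg adjustment over the 7685 genes tested and a threshold of 0.05. The SE is the log2 fold change divided by the square root of F, and 95% intervals use the fit's degrees of freedom. Members under the filter were given as summed ratios with exact 95% conditional intervals. A library with 0 counts of a gene allows up to 3 counts, 3.32 to 4.61 CPM here. Intervals and floors cover counting error only, except those of the fit. The procedure was tested on simulated data.

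Alternatives were RLE factors, no scaling, no filter, 1 CPM in 2 libraries, DESeq2 1.42.0, limma-voom (limma 3.58.1), leaving out each library on the same genes, and leaving out haemoglobin and mitochondrial genes. Every member is named; of the other pathway and target lists, called genes and, in a list with fewer than 3 calls, up to 4 with the smallest p, of which 1 is not reported here. The members and lists were chosen with earlier results of these data known. Further marker lists were T and NK cells (422 to 490 CPM in KO, 367 to 433 CPM in WT, 1 of 13 lower), dendritic cells (4710 to 4931 and 4742 to 5041 CPM, 1 of 11 higher), platelets (35.3 to 67.6 and 46.1 to 126 CPM, 0 of 2 called), basophils, mast cells and eosinophils (13.9 to 27.8 and 29.2 to 165 CPM, 0 tested) and melanoma (2 of 7 measured, at most 3.62 and 2.22 CPM).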

Additional observations from a re-analysis of the deposited data

How the results depend on the processing

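The count of members called lower in KO, 1 with all libraries, was 0 without scaling, with the filter of 1 CPM and in DESeq2, and 0 to 1 when a library was left out; the count called higher, 0, was 0 to 1. The member called was Irak3 without KO library 2, Tnip1 without WT library 1 and Tab1 without WT library 2, and none without KO library 1. The members' median of −0.18 ran from −0.33 to 0.055 when a library was left out and from −0.21 to −0.17 otherwise. Other pathway genes called were 0 higher and 2 lower, and 1 lower in DESeq2 and limma-voom, 1 higher with haemoglobin and mitochondrial genes left out, and 0 to 1 higher and 1 to 3 lower when a library was left out (Card9 added without KO library 2, Tab3 without WT library 1, Dusp1 added and Lbp lost without WT library 2). DESeq2 called 124 genes higher and 175 lower over the whole table, against 208 and 251. Target counts did not change. The cause of these shifts was not tested. Leave-out fits assume that the lone library of a genotype varies like the others.

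Every turn of sign came from leaving out a library, and all of these members were uncalled. The log2 fold changes then ran as follows: Tlr1 −0.66 to 0.98, Tlr13 −0.57 to 0.25, Tirap −0.95 to 0.18, Irak1 −0.37 to 0.46, Irak2 −0.30 to 0.48, Traf6 −0.92 to 0.20, Tab2 −0.81 to 0.18, Map3k7 −0.27 to 0.27, Ikbkb −0.099 to 0.59, Nfkb2 −0.61 to 0.13, Rel −0.29 to 0.28, Rela −0.52 to 0.059, Nfkbia −0.14 to 0.41, Nfkbiz −0.53 to 0.10, Tnfaip3 −0.086 to 0.29, Tnfrsf1b −0.48 to 1.26, Ripk1 −0.37 to 0.072, Irf3 −0.63 to 0.30, Irf5 −0.40 to 0.058 and Icam1 −0.063 to 0.69. No paired analysis was possible because neither the labels nor the columns pair libraries across genotypes. With 2 libraries a genotype and a median of 101.5 counts per tested member, the interval of most tested members reached 2-fold in at least 1 direction.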
